A study of Mus musculus with 6 samples.

Results

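The genes described here encode the insulin-like growth factors (IGFs), their receptors and their binding proteins. They are Igf1, Igf2, Igf1r, Igf2r and Igfbp2 to Igfbp7, 10 of the 43346 rows of the deposited table, taken by gene symbol. RNA was sequenced in MC3T3-E1, an established mouse osteoblastic cell line, 2 days after the confluent cells were moved to osteoblastic medium. The groups were 3 libraries of a control MC3T3 line and 3 libraries of an MC3T3 line edited with CRISPR and labelled Rorβ-CRISPR (KO), where Rorβ is a retinoid-related orphan nuclear receptor. No treatment other than that medium is named. The labels do not give the number of edited clones. They also do not say that replicates came from separate cultures, and p-values then reflect only how these libraries vary, which may be technical.

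IGF1 and IGF2 are secreted peptides that act through the IGF1 receptor, a tyrosine kinase that signals to PI3K-AKT and to MAPK. The IGF2 receptor binds IGF2 and mannose 6-phosphate proteins and carries them to lysosomes, without a kinase of its own. Binding proteins hold the IGFs outside the cell, where they limit or prolong their action, and proteases release the peptides by cutting them. Bone matrix stores IGFs, and osteoblasts make the ligands as well as several of the binding proteins.

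Values are reads scaled by the authors to an effective library size (TMM, trimmed mean of M values), given as mean ± SD over 3 libraries. Between 34662707 and 42603315 reads per library fell in genes. Each fold change compares Rorβ-CRISPR with control after log2(value + 1), from limma-trend with Benjamini-Hochberg adjustment over all 13498 rows tested. Rorb itself stood at 0.0271, 0.0779 and 0 in the control libraries and at 1.87, 1.69 and 2.52 in those labelled Rorβ-CRISPR. The RNA of the targeted gene was thus higher in the labelled libraries. Read totals of a gene cannot show which bases were edited. Directions below are between libraries as labelled.

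All 10 osteoblast markers checked, among them Runx2, Sp7, Col1a1 and Ibsp, passed the filter on low values (3 or more libraries at a value of 1 or higher). They did not move together. Runx2, Sp7, Alpl and Ibsp were higher in the labelled libraries (log2 fold change 0.22, 0.26, 1.01 and 1.93), and the other 6, among them Col1a1 (-0.77), Col1a2 (-0.82) and Sparc (-0.64), were lower. Their summed value, mostly Col1a1, Col1a2 and Sparc, was 72147 to 74615 in control and 42752 to 44095 in the labelled libraries. Of 5 adipocyte and 4 endothelial markers, 0 passed the filter on low values. The summed value of 5 chondrocyte markers was 322 to 344 in control and 224 to 238 in the labelled libraries, with Acan at 0. The sum of 5 macrophage and blood markers was 20.3 to 23.4 against 14.2 to 15.2, with Emr1 at 0. In it Lyz2 fell from 14.9 ± 1.57 to 7.64 ± 0.636, Csf1r was not called (log2 fold change -0.04) and Cd68 did not pass the filter. The sum of 6 skeletal muscle markers was 6.54 to 7.22 against 1.71 to 2.15, with Myod1 and Myog at 0. It was mostly Des (6.49 ± 0.427 and 1.75 ± 0.265), so the sum reflects that gene. The sum of 4 neuronal markers was 43.6 to 49.8 against 47.6 to 53.8, with Snap25 and Rbfox3 at 0. Within that sum Tubb3 rose from 6.12 ± 0.677 to 32.3 ± 3.29 and Map2 fell from 40.4 ± 3.47 to 18.8 ± 0.201. The share of reads in 3 rows rich in ribosomal RNA was 25.4%, 17.9% and 16.9% in control and 15.2%, 13.1% and 13.9% in the labelled libraries, without overlap and highest in control replicate 1. The part of these differences in the values below was not tested. In bulk RNA, fewer cells of a type and less RNA per cell cannot be told apart.

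Of the 10 genes, 8 were tested, and all 8 had lower values in libraries labelled Rorβ-CRISPR, against a background of 33.3% of tested rows lower and 32.9% higher. These 8 had values above 1 in all 6 libraries. Their median log2 fold change was -0.87, where that of all tested rows was 0.0025. Of the 8, 5 were lower by a fold of 1.5 or more (7.99% of tested rows). A fall of 2-fold or more was seen in 3 (2.73%). Control and labelled values were apart in each of the 8, which held for 68.4% of tested rows. Scaled by library size only, which moved the median row upward by 0.21 (log2), 5 of the 8 stayed lower (background 14.6% lower), and Igf1r, Igf2r and Igfbp7 were not called. With total reads less those 3 ribosomal RNA rows, all 8 were lower (background 22.8%). The other 2 genes, Igfbp2 and Igfbp3, did not pass the filter.

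**Figure D1:**
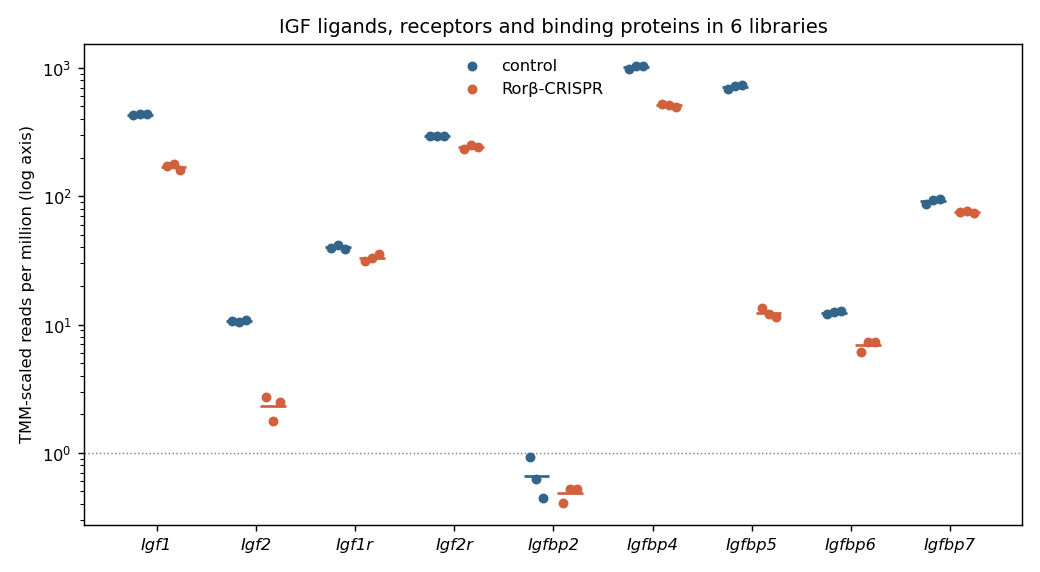
TMM-scaled reads (log axis) of 9 of the 10 genes in each library, with points for libraries, short lines for group means and a dotted line at the filter value of 1. Igfbp5 drops from 681 to 731 in control to 11.5 to 13.5 in Rorβ-CRISPR, Igfbp2 lies below 1 in both groups, and Igfbp3, with 0 reads, cannot be drawn.

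The plot of values by library shows the groups apart for every gene above the filter. Igf1, the ligand that osteoblasts use as a growth and survival factor, stood at 426, 434 and 433 in the control libraries. In those labelled Rorβ-CRISPR it stood at 171, 178 and 159. Every labelled library lay far below every control library, a fall from 431 ± 4.34 to 169 ± 9.53, or 60.8%. The log2 fold change was -1.35 (SE 0.029, 95% interval -1.40 to -1.29, limma-trend adjusted p = 3.18e-34). Only 1.43% of tested rows had a fold change as low or lower.

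Igf2, the imprinted ligand that is abundant in the fetus, had far fewer reads. Its values were 10.6, 10.5 and 10.8 in control, from 393 to 435 reads per library. In the labelled libraries they were 2.71, 1.78 and 2.47, from 82 to 109 reads. The groups were well apart, although the labelled libraries varied more among themselves (coefficient of variation 20.8% against 1.07%). The log2 fold change was -1.82 (SE 0.1002, limma-trend adjusted p = 5.07e-22), and the ratio of the group means was 4.59-fold. Since Igf2 lies near the pseudocount, the log2 fold change by edgeR's quasi-likelihood test, run on whole reads, was -2.21.

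Per kb of exon (GENCODE M21 lengths), Igf1 RNA stood 23.4 ± 0.349 times as high as Igf2 RNA in control and 43.8 ± 12.1 times in the labelled libraries. Igf1os, an antisense gene that overlaps Igf1, was named after its values were seen. It stood at 1.25 ± 0.266 in control and 0.614 ± 0.0601 in the labelled libraries. Only the control libraries reached the filter value of 1, so a fall of Igf1os was favoured by the filter. The strand used in counting is not given in the sources used here, so reads of Igf1 and Igf1os cannot be told apart where they overlap. Igf2os, antisense to Igf2, had 2 reads in all 6 libraries. Ins2, the insulin gene next to Igf2, had 0 reads, which allows up to 3 reads in each library.

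Igf1r, the signalling receptor, stood at 39.5, 41.6 and 38.9 in control and at 31.4, 33.0 and 35.2 in the labelled libraries. The groups did not overlap, but the lowest control value lay only a little above the highest labelled one. The log2 fold change was -0.26 (SE 0.049, limma-trend adjusted p = 5.91e-06), a decrease of 16.98% in the mean. Igf2r, which clears IGF2, stood at 293, 296 and 293 in control and at 235, 251 and 240.0 in the labelled libraries. Its log2 fold change was -0.28 (SE 0.026, limma-trend adjusted p = 2.16e-13), a decrease of 17.7%. Falls this small were common, since 21.6% of tested rows had a fold change as low as that of Igf1r or lower.

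Neither receptor was called with library size only, at -0.04 (adjusted p = 0.61) for Igf1r and -0.06 (adjusted p = 0.437) for Igf2r. The ratio of Igf2r to Igf1r RNA per kb does not depend on scaling. It was 13.3 ± 0.387 in control and 13.2 ± 0.761 in the labelled libraries, so any difference lay within the spread. The ratio of Igf1 to Igf1r RNA per kb was 18.3, 17.7 and 18.9 in control and 9.21, 9.14 and 7.66 in the labelled libraries. That of Igf2 to Igf2r was 0.0589 ± 0.000895 and 0.0157 ± 0.00372. Ligand RNA was thus lower relative to receptor RNA in every labelled library than in any control library. These are ratios of RNA levels, not of protein.

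**Figure D2:**
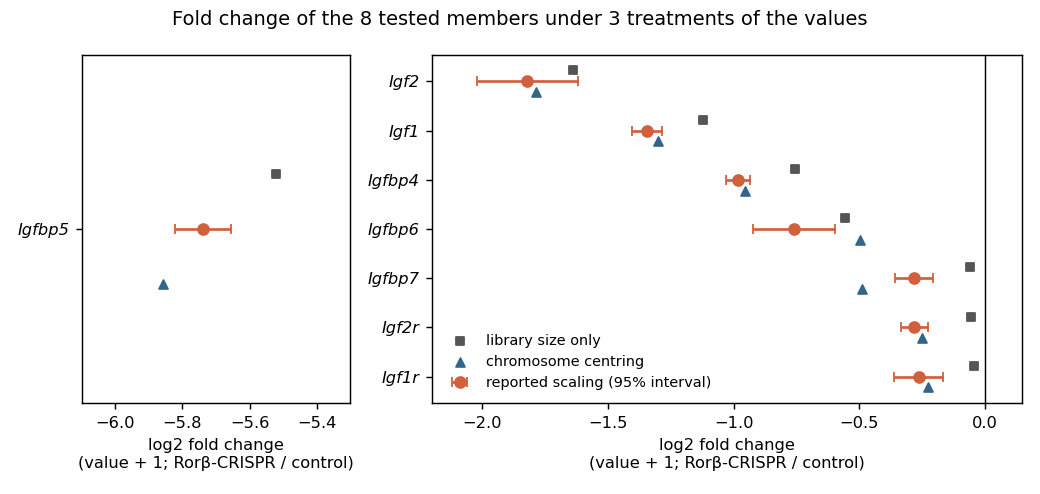
Log2 fold change (value + 1) of the 8 tested genes, Rorβ-CRISPR over control, with the 95% interval of the reported fit, and the values with library size only (squares) and after centring each gene on its chromosome's median (triangles). Igfbp5 has its own axis. Igfbp7, Igf2r and Igf1r lie near 0 with library size only, at -0.06, -0.06 and -0.04, and the other 5 stay below -0.5 there.

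The plot of fold changes separates Igfbp5 from the rest. Igfbp5, which binds IGFs as well as matrix and is the main binding protein laid down in bone, stood at 681, 725 and 731 in the control libraries. In the labelled libraries it stood at 13.5, 12.1 and 11.5. The smallest control value was many times the largest labelled value, with 25177 to 29545 reads per control library and 498 to 557 per labelled one. The ratio of the group means was 57.6-fold and the log2 fold change -5.74 (SE 0.041, limma-trend adjusted p = 1.86e-40). In this fit no other tested row had a log2 fold change as low. Entpd3 (-5.18 here) lay lower than Igfbp5 with a pseudocount of 0.5 (-6.00) or 0.1 (-7.45), by edgeR (-8.20) and by DESeq2 (-8.24). The fold change of Igfbp5 ranged from -5.86 to -5.52 over the 18 alternatives tried.

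Igfbp5 and Igfbp2 are neighbours on chromosome 1 (RefSeq order, GRCm38.p6). Igfbp2, a binding protein with an integrin-binding motif, stood at 0.9199, 0.623 and 0.445 in control and at 0.406, 0.521 and 0.522 in the labelled libraries. The groups overlapped. There were 76 and 62 reads in all, and their ratio after division by the effective library sizes was 0.744 (exact 95% interval 0.523 to 1.05), which covers counting error only. Without a filter the log2 fold change was -0.16 (limma-trend adjusted p = 0.326), or -0.43 by edgeR's quasi-likelihood test (adjusted p = 0.345). No difference in Igfbp2 was therefore called, and counting error alone allowed ratios from 0.523 to 1.05.

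The values of 4 tested genes near this pair, named after they were seen, were as follows. Rpl37a, a ribosomal protein gene, rose from 177 ± 5.71 to 255.0 ± 7.97 (log2 fold change 0.53). Smarcal1, Tns1 and Arpc2 were not called, at 0.09, 0.01 and 0.0095 (log2), but were called higher with library size only, at 0.31, 0.24 and 0.23. The median log2 fold change of the 747 tested genes of chromosome 1 was 0.12. Taken from that median, Smarcal1, Tns1 and Arpc2 lay at -0.03, -0.10 and -0.11, and Igfbp5 at -5.86. After that centring Tns1 (limma-trend adjusted p = 0.00765) and Arpc2 (adjusted p = 0.000469) were called lower, and Smarcal1 was not.

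Igfbp4, which mostly restrains IGF action and is cut by the protease PAPP-A, had the highest RNA level of the 10 genes per kb. It stood at 978, 1037 and 1026 in control and at 527, 514 and 497 in the labelled libraries. The groups were far apart, with a log2 fold change of -0.98 (SE 0.024, limma-trend adjusted p = 7.47e-35). Igfbp6, which prefers IGF2 over IGF1, stood at 12.0, 12.4 and 12.7 in control and at 6.15, 7.25 and 7.35 in the labelled libraries. Its log2 fold change was -0.76 (SE 0.082, limma-trend adjusted p = 1.24e-11). Igfbp6 lies on chromosome 15, where the median of 479 tested genes was -0.26, and from that median it lay at -0.50 and was still called.

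Igfbp7, a related matrix protein that binds IGFs only weakly, stood at 86.2, 92.7 and 95.6 in control and at 75.1, 76.3 and 73.5 in the labelled libraries. The groups did not overlap, and the log2 fold change was -0.28 (SE 0.037, limma-trend adjusted p = 3.30e-09). With library size only it was -0.06 and not called (adjusted p = 0.427). On chromosome 5, where Igfbp7 lies, the median of 779 tested genes was 0.21, and from that median Igfbp7 lay at -0.49. The 95% intervals of Igfbp7 (-0.36 to -0.21), Igf2r (-0.33 to -0.23) and Igf1r (-0.36 to -0.16) overlapped, so these 3 cannot be put in order. Igfbp3, the main carrier of IGFs in serum, had 0 reads in all 6 libraries. That allows up to 3 reads in each, or a value of 0.0651 to 0.0812.

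Per kb of exon, the order of RNA levels in control was Igfbp4 (229.5 ± 7.15), Igfbp5 (119 ± 4.52), Igfbp7 (75.7 ± 4.004), Igf1 (43.5 ± 0.438) and Igf2r (31.6 ± 0.153). Igfbp6 (11.1 ± 0.285), Igf1r (2.38 ± 0.0821), Igf2 (1.86 ± 0.0199) and Igfbp2 (0.359 ± 0.1298) followed. Neighbours in that order differed by more than their SDs. In the labelled libraries the order was Igfbp4 (116 ± 3.44), Igfbp7 (62.0 ± 1.17), Igf2r (26.0 ± 0.865), Igf1 (17.1 ± 0.962) and Igfbp6 (6.22 ± 0.600). Igfbp5 (2.06 ± 0.167) and Igf1r (1.98 ± 0.115) came next and did not differ beyond their spread, before Igf2 (0.405 ± 0.0843) and Igfbp2 (0.261 ± 0.0360). With the length of the longest coding transcript, however, labelled Igf1r (2.91 ± 0.169) stood above Igfbp5 (2.06 ± 0.167), so their order depends on the length used. With that length, labelled Igf2 (0.491 ± 0.102) and Igfbp2 (0.369 ± 0.0509) lay within their spread. In Rorβ-CRISPR replicate 2 their order was then reversed (0.377 and 0.399).

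**Figure D3:**
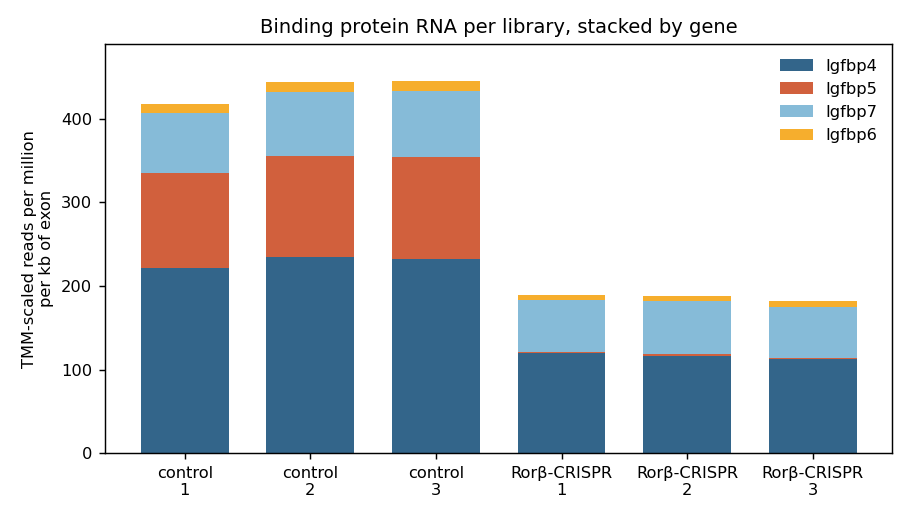
Stacked bars of TMM-scaled reads per kb of exon for Igfbp4, Igfbp5, Igfbp7 and Igfbp6 in each of the 6 libraries. The sum of binding proteins averages 435 in control and 187 in Rorβ-CRISPR, and the Igfbp5 segment, 27.2% of the sum in control, is 1.103% in Rorβ-CRISPR.

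As the stacked plot shows, the sum of Igfbp2 to Igfbp7 RNA per kb was 435 ± 15.5 in control and 187 ± 3.97 in the labelled libraries, a ratio of 2.33-fold. The make-up of that sum does not depend on scaling. Igfbp5 made up 27.2% to 27.4% of it in the control libraries and 1.05% to 1.18% in the labelled ones. The share of Igfbp4 was 52.7% ± 0.433 and 62.2% ± 0.696, and that of Igfbp7 was 17.4% ± 0.361 and 33.2% ± 0.389. Igfbp6 held 2.56% ± 0.0394 and 3.34% ± 0.372. Igfbp7 therefore took a larger share in the labelled libraries although its own level was lower. Igf1 RNA relative to summed binding protein RNA was 0.103, 0.0988 and 0.0983 in control and 0.0908, 0.0955 and 0.0882 in the labelled libraries. The groups did not overlap, by a small margin. With the length of the longest coding transcript in place of all exons, the share of Igfbp5 was 25.2% and 1.00%, and the ratio of the sums 2.30-fold.

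Promoters of 3 of the genes are shown because these genes had the highest values of the 10 in control and fell. Sequences are from RefSeq (GRCm38.p6), 250 bases before to 50 after the start of the gene, 5′ to 3′ on the strand of the gene. Capitals mark matches on either strand to AGGTCA, the core letters of sites that ROR receptors bind, to TATAAA or to GGGCGG. The Igfbp5 window, chr1:72874816-72875115 on the minus strand, held no match. The Igf1 window, chr10:87860861-87861160 on the plus strand, held AGGTCA at positions -161 to -156 from the start. The Igfbp4 window, chr11:99040994-99041293 on the plus strand, held TATAAA at -28 to -23.
Igfbp5: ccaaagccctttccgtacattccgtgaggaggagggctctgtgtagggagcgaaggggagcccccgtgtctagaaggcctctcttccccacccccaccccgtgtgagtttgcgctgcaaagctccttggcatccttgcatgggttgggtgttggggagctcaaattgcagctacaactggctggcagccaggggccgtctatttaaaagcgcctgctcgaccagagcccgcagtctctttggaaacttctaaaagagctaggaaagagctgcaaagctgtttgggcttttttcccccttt
Igf1: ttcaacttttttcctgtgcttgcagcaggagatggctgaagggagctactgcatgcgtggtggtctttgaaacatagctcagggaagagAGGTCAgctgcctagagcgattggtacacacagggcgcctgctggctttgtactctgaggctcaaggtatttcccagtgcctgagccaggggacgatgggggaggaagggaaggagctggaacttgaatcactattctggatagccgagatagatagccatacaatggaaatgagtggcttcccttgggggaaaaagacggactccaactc
Igfbp4: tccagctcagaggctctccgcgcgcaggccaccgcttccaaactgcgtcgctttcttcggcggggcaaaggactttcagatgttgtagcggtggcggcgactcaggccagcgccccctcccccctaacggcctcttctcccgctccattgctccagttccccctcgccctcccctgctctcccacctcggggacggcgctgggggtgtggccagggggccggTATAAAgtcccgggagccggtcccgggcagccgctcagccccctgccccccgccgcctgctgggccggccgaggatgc

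Of all 32851 promoter windows of this length, 16.3% held AGGTCA, 13.6% TATAAA and 35.7% GGGCGG. The 10 genes have 14 windows, of which 4 held AGGTCA (Igf1, Igf1r, Igf2r and 1 of the 4 of Igf2), 2 held TATAAA (Igfbp4 and Igfbp6) and 6 held GGGCGG, with no overlap between matches. A match is a string of letters and not a bound site.

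The genes with the pattern nearest to that of Igfbp5, by root-mean-square distance of log2(value + 1) from the control mean over 6 libraries, were Entpd3, Actg2 and Eln, in that order. Their fold changes ranked 2, 3 and 4 from the lowest of all tested rows, so this distance mostly restates the fold change. The distance was 0.396 for Entpd3 and 1.07 for Eln. Entpd3, an ectonucleotidase gene, stood at 40.4 ± 2.19 in control and 0.140 ± 0.0895 in the labelled libraries. Actg2 is a smooth muscle actin gene and Eln the elastin gene, with log2 fold changes of -4.37 and -4.23. Igf1r had the smallest fall of the 8 in this fit, but not without control replicate 3 (-0.28, Igfbp7 -0.25) or Rorβ-CRISPR replicate 3 (-0.30, Igf2r -0.28, Igfbp7 -0.27). Nearest to it were Mfge8, Crebrf and Ppm1k, at distances of 0.0154, 0.0238 and 0.0262. Like Igf1r, these 3 were not called with library size only.

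Other genes of the IGF system were read from lists of known roles, again beside 33.3% of tested rows lower and 32.9% higher. Of 17 genes for binding protein proteases and their regulators, 12 were tested, 8 were lower, 3 higher and 1, Adam12, named after its values were seen, was not called (log2 fold change -0.10, adjusted p = 0.227). The median was -0.36. Plat, the tissue plasminogen activator gene, was at -2.31, and Plau, the urokinase gene, at 0.87. C1s1, a complement protease gene, and Ctsd, the cathepsin D gene, were at -0.44 and -0.23, the latter at -0.0017 and not called with library size only. Stc1 and Klk6 had 0 reads.

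Further genes of this list moved in both directions, and the following 4 were named after their values were seen. Pappa2, whose protease cuts IGFBP3 and IGFBP5, stood at 961, 919 and 892 in control and at 1780, 1687 and 1889 in the labelled libraries. All labelled libraries lay above all control libraries (log2 fold change 0.95, SE 0.052, limma-trend adjusted p = 2.36e-05). Htra1, a secreted protease that cuts IGFBP5, stood at 464, 494 and 516 in control and at 148, 155 and 137 in the labelled libraries. It fell by 1.74 on the log2 scale (SE 0.054, limma-trend adjusted p = 2.03e-08). Pappa, which encodes the related protease PAPP-A, fell from 7.14 ± 0.205 to 4.44 ± 0.335, and C1ra, a complement gene, rose from 55.5 ± 1.32 to 66.2 ± 1.62.

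Of 16 further family members and partners of the ligands and binding proteins, 8 were tested, 7 were lower and 1, Insr, was higher (median -0.47). Insr, the insulin receptor gene and closest relative of Igf1r, named after its values were seen, rose from 35.8 ± 1.73 to 40.0 ± 0.201 (log2 fold change 0.16, limma-trend adjusted p = 0.00316). Lrp1, an endocytic receptor gene, fell from 815 ± 13.3 to 346 ± 14.9. The integrin genes Itga5, Itgav and Itgb3 fell, at -0.76, -0.69 and -0.63. Igfbp1, Igfbpl1, Ins1, Ins2 and Insrr had 0 reads. All 3 tested genes for convertases that could trim IGF precursors were lower, Pcsk6, Pcsk7 and Furin at -0.47, -0.25 and -0.24, but with library size only Pcsk7 and Furin were not called.

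Of 6 genes for RNA partners of Igf2, a list that also held Airn of the Igf2r locus, 4 were tested. Of these, 2 were called higher and 0 lower, where 32.9% of all tested rows were higher. Igf2bp1, which encodes a protein that binds Igf2 mRNA, rose from 32.7 ± 1.47 to 44.2 ± 1.23 (log2 fold change 0.42, limma-trend adjusted p = 3.12e-11). Igf2bp3 rose from 49.4 ± 1.58 to 55.6 ± 3.76. Igf2bp2 and Airn, the noncoding RNA gene that overlaps Igf2r, both named after their values were seen, were at 0.03 and 0.19 and not called, but both were called higher with library size only. H19, the noncoding partner of Igf2 at its imprinted locus, also named after its values were seen, did not pass the filter. It stood at 0.271, 0 and 0.0495 in control and at 0.785, 0.868 and 0.862 in the labelled libraries, so the groups did not overlap.

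**Figure D4:**
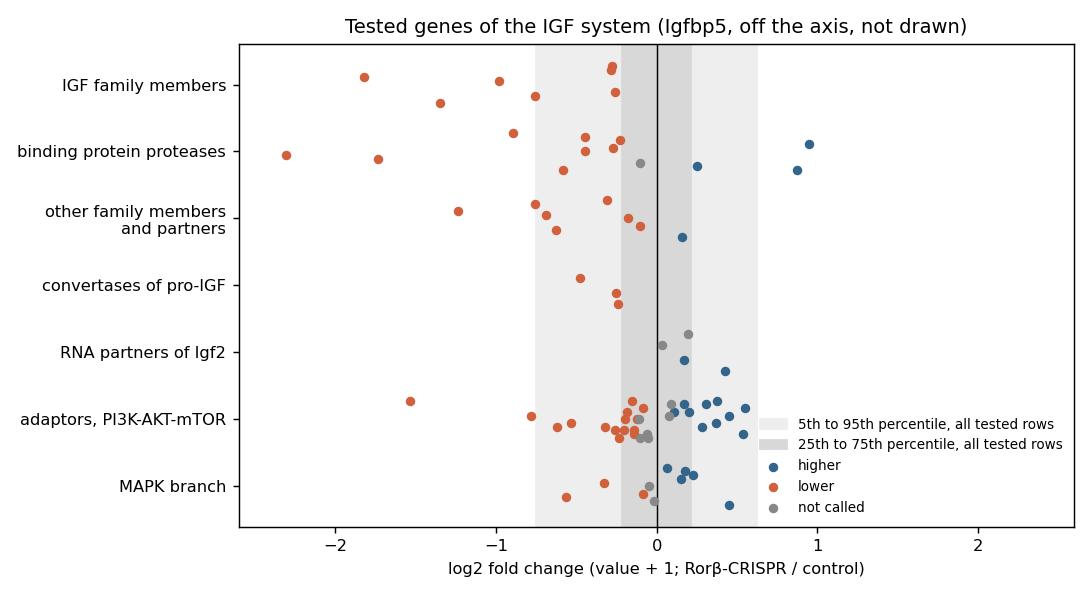
Log2 fold change (value + 1; Rorβ-CRISPR over control) of each tested gene of the IGF family and of 6 lists of the IGF system, coloured by call, over grey bands for the middle of all tested rows. Family members lie to the left of 0 (Igfbp5, at -5.74, is off the axis). Most proteases and partners do too, but 3 of 12 proteases were higher, with Pappa2 at 0.95. Adaptor, PI3K-AKT-mTOR and MAPK genes lie on both sides of 0. With library size only, points move to the right by about 0.21.

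The plot of the lists shows intracellular signalling genes on both sides of 0. Of 32 receptor adaptors and PI3K-AKT-mTOR genes, 31 were tested, 15 were lower, 10 higher and 6 not called (median -0.10), and Irs4 had 0 reads. Grb14 and Grb10, which encode adaptors that restrain the receptor kinase, fell, at -1.54 and -0.62. Shc1, an adaptor gene of the MAPK branch, was at -0.78, and Pik3r1, for the regulatory subunit of PI3K, at -0.53. Akt1, a kinase gene named after its values were seen, rose by 0.28.

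Of 10 MAPK branch genes, 5 were higher, 3 lower and 2 not called (median 0.025). Of these, Map2k2, Nras and Mapk3 were named after their values were seen. Among the higher genes Hras, Ptpn11 and Map2k2 were at 0.45, 0.23 and 0.18, and Ptpn11 was at 0.02 and not called after chromosome centring. Map2k1, Braf and Nras were lower, at -0.57, -0.33 and -0.08, but with library size only Nras was at 0.14 and Braf was not called. Nras (adjusted p = 0.0422) also lost its call without a filter in limma-trend and in edgeR, with DESeq2, after chromosome centring (-0.048), and without control replicate 1 or 3 or Rorβ-CRISPR replicate 1 (-0.088 to -0.064). Mapk3, which encodes an ERK kinase, was at -0.02 and not called, and was called higher with library size only, at 0.21.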

How the data were processed

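RNA-seq values of 6 libraries were analysed. Per the submitters' processing notes, the mouse build was mm9 and the tools TopHat2 2.0.6 and HTSeq; the sources used here give no annotation, strand or counting options. Per the file headers, the deposited signal of each library is TMM-scaled. The authors' deposited table also gives median counts, a fold (ratio), a p-value and a q-value (method not named). Dividing by what 1 read is worth gave whole reads for 100% of values in each library (tolerance 0.01), and the deposited median counts matched their medians throughout. On these reads edgeR called 4476 rows higher and 4449 lower.

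Because values were scaled and not counts, limma-trend (robust) was run on log2(value + 1) over rows that reached a value of 1 in 3 or more libraries, with an adjusted p of 0.05 as threshold. Alternatives were other scalings, pseudocounts of 0.1 and 0.5, other filters, a replicate block, edgeR, DESeq2, chromosome centring and leaving out libraries. Total reads without 3 rows rich in ribosomal RNA reads and edgeR without a filter were added after seeing the data. Members, lists and tests were chosen with earlier results of these data known. Named genes were the members, Rorb, up to 4 called genes of smallest adjusted p per list (or, with fewer than 2 called, those of highest mean to make 2), and the 3 nearest patterns to the members of lowest and highest fold change. Some items of the lists are not reported here. Apart from cell type markers and genes with few or no reads, genes named otherwise are said to be named after their values were seen. Replicates of a group differed by more than sampling noise. The mean chi-square per gene was 64.8 and 91.5 for control replicate 1 against control replicates 2 and 3. In the other pairs it was 5.92 to 10.4. These means include the 3 rows rich in ribosomal RNA. Those rows held 25.4% of reads in control replicate 1 and 13.1% to 17.9% in the other libraries. Rows with so many reads weigh heavily in such a mean, so it does not show how much other genes of control replicate 1 differed. Exon lengths were from GENCODE M21 (GRCm38); chromosomes were matched by symbol for 93.2% of tested rows (RefSeq GRCm38.p6). Because builds differ, only the promoter windows carry coordinates.

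Tables and figures used matplotlib 3.10.9, pandas 2.3.3, scipy 1.17.1 and numpy 2.4.6 under Python 3.11.15; models used DESeq2 1.42.0, limma 3.58.1 and edgeR 4.0.16 under R 4.3.3.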

Additional observations from a re-analysis of the deposited data

How the results depend on the processing

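Over 18 alternatives, Igf1, Igf2, Igfbp4, Igfbp5 and Igfbp6 were called lower in every one, with log2 fold changes of -1.38 to -1.12, -2.21 to -1.64, -1.01 to -0.76, -5.86 to -5.52 and -0.83 to -0.50. With library size only, which moved the median row by 0.21, Igf1r (-0.042), Igf2r (-0.055) and Igfbp7 (-0.059) lost their calls, 5 of the family were called lower, and 7291 rows were higher and 1975 lower, in place of 4441 and 4501 (78.7% of calls higher in place of 49.7%). Total reads without the ribosomal RNA rows moved the median row by 0.11 (67.0% of calls higher) and left 8 called lower, with Igf1r at -0.15, Igf2r at -0.16 and Igfbp7 at -0.16. Which scaling is nearer to RNA per cell was not tested. Leaving out libraries gave 8 called lower each time, with 4154 to 4286 rows higher and 4250 to 4321 lower. Deviations of libraries with the same replicate number had r across genes of -0.06, 0.17 and 0.13. Pairs with different numbers had r of -0.21 to 0.11. So few pairs cannot show whether libraries of the same number share a batch. The fit with a replicate block called all 8 lower, Igfbp5 at -5.74.

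Genes near 0 changed sign. Library size only moved the median row by 0.21, and leaving out the ribosomal RNA rows moved it by 0.11. Centring takes off the median of each chromosome. With library size only Adam12, Nras and Mapk3 stood at 0.10, 0.14 and 0.21, and without the ribosomal RNA rows at 0.006998, 0.034 and 0.10. After chromosome centring Mapk3, Smarcal1, Tns1 and Arpc2 stood at 0.019, -0.031, -0.10 and -0.11. With each library left out in turn, Mapk3 ranged from -0.028 to 0.0022 (above 0 without Rorβ-CRISPR replicate 2) and Tns1 from -0.010 to 0.051 (below 0 without control replicate 1). Arpc2 ranged from -0.0095 to 0.027 (below 0 without control replicate 1 or Rorβ-CRISPR replicate 1). Igfbp2, Igfbp3 and H19 did not reach the filter on scaled values; the read counts of Igfbp2 (76 and 62) limit what its ratio can show.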

Other observations

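Several proteins outside the family carry the same kind of amino-terminal domain as the IGF binding proteins, and 13 of their genes were looked up after the values of the family had been seen. Of these, 9 were tested, 7 were lower and 2 higher in the libraries labelled Rorβ-CRISPR, beside 33.3% and 32.9% of all tested rows (limma-trend, adjusted p under 0.05). Among genes of the CCN family of matrix-associated proteins, Wisp2 fell from 59.3 ± 1.61 to 18.1 ± 1.90 (log2 fold change -1.66) and Nov from 214 ± 9.19 to 112 ± 2.2003 (-0.93). Cyr61 fell from 147 ± 6.82 to 90.9 ± 6.38 and Wisp1 from 108 ± 3.37 to 83.4 ± 5.06. Nov and Wisp1 lie on chromosome 15, whose median was -0.26. Ctgf was at -0.29 but lost its call with library size only, without control replicate 2 (-0.18) and without the ribosomal RNA rows. The protease genes Htra1 and Htra3, which are also on the protease list above, were lower, at -1.74 and -0.89. Kazald1 rose from 167 ± 0.949 to 212 ± 10.3, and Crim1 rose by 0.20. The list was chosen with results known and was not tested as a list.

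In the authors' deposited table the fold was 0.0173 for Igfbp5, 0.393 for Igf1, 0.216 for Igf2 and 0.506 for Igfbp4. For Igfbp2 the fold in the authors' deposited table is 0.739 (q = 0.523), and for Igf1r and Igf2r folds of 0.831 and 0.823 with q = 4.76e-06 and 9.68e-06.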
